A study of Homo sapiens with 14 samples.

Results

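The subunits of Polycomb repressive complex 2 (PRC2) were followed through an RNA sequencing series on knockdown of the H3K27 demethylases JMJD3 and UTX in human T cell acute lymphoblastic leukemia. The group has 10 genes of the 55075 in the deposited tables, taken by symbol: EZH2, EZH1, SUZ12, EED, RBBP4, RBBP7, JARID2, MTF2, PHF19 and PHF1. All 10 were found, and each had at least 1578 counts in every column. The 14 samples came from 2 established lines, CUTLL1 and CEM, grown in suspension in RPMI medium and infected with retroviruses for 1 of 3 short hairpins. These were shJMJD3, aimed at KDM6B (the gene of JMJD3), shUTX, aimed at KDM6A (the gene of UTX), and the control shRenilla, aimed at a luciferase that human cells lack. CUTLL1 had 3 shJMJD3, 2 shUTX and 3 shRenilla samples, and CEM had 2 of each hairpin. Every group thus carries a retrovirus and a hairpin, and no uninfected cells are among the samples.

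PRC2 places methyl groups on lysine 27 of histone H3, a mark of silenced genes that JMJD3 and UTX remove. EZH2 or its paralog EZH1 is the catalytic subunit, and SUZ12 and EED are needed for activity and stability, with EED also binding the trimethylated mark. RBBP4 and RBBP7 are histone-binding proteins shared with other chromatin complexes. JARID2 joins one form of the complex, PRC2.2, and MTF2, PHF19 and PHF1, the Polycomb-like proteins, join another, PRC2.1. In T cell leukemia, loss-of-function lesions of EZH2, SUZ12 and EED are known.

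Each hairpin in each line is represented by a single count column, and the spread among replicates inside a line is therefore not visible. In these bulk values, fewer expressing cells and less RNA per cell cannot be told apart. Totals per column lay between 70280185 and 104190473 counts in CEM and between 101792401 and 258014046 in CUTLL1. The CUTLL1 shRenilla column came in 2 versions: it had 258014046 counts beside shJMJD3 and 144394369 beside shUTX. They are called larger and smaller here, and subtraction left a remainder of 113619677. Small noncoding RNAs made up 11.7% of the shJMJD3 counts and 2.58% of the shUTX counts in CUTLL1, against 9.33% in the larger control, 1.97% in the smaller one and 18.7% in the remainder, while in CEM they were at most 0.0486%. The hairpins' targets were lower than in the control, as values without a test: KDM6B had log2 ratios of -0.64 in CUTLL1 and -1.67 in CEM under shJMJD3, and KDM6A of -1.12 and -1.36 under shUTX. All 11 T cell markers had counts in every column, with a summed level of 3375 to 5074 CPM (counts scaled to a column total of 1000000), and the B cell, myeloid and fibroblast lists of 6 genes each summed to at most 83.3, 6.47 and 9.85 CPM.

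Promoter sequences are shown for the 4 members whose upstream window held an E2F-type motif or an E-box, because EZH2 and EED are known targets of E2F factors and the largest ratios between hairpin columns of 1 line below are those of PHF19 and RBBP4. Capitals mark the motif. Sequences are from RefSeq on GRCh38.p14, in the gene's direction, and bases that lie in an exon of the same gene in GENCODE release 29 were left off.
PHF19, second listed start, chr9:120877329-120877438, minus strand, 110 bases with the E2F-type motif: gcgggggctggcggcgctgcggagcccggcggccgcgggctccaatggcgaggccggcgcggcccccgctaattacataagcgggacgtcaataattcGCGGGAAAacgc
EZH1, chr17:42745050-42745290, minus strand, 241 bases with the E2F-type motif: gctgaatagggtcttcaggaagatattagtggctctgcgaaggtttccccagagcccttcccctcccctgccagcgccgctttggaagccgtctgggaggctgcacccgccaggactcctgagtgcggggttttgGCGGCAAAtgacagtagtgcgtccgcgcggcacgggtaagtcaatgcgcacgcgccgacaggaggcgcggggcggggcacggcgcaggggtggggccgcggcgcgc
SUZ12, chr17:31936757-31937006, plus strand, 250 bases with the E2F-type motif: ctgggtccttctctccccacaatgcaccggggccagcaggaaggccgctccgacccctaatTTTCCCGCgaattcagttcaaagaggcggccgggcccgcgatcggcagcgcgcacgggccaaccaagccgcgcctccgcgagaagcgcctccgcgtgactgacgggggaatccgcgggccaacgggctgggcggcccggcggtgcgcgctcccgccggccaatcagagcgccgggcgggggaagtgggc
RBBP4, first listed start, chr1:32650958-32651141, plus strand, 184 bases with the E-box: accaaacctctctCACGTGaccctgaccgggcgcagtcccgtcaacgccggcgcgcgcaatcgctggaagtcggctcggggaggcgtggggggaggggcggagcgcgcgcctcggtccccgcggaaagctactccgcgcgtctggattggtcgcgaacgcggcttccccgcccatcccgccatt

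All 10 members matched the RefSeq table, with 15 starts between them. A first search of the 250 bases before each start, on both strands, for the E2F-type letters TTTCGCGC and TTTGGCGC found 0 of the 15 member windows, against 0.968% of 35116 windows of all genes. The search was then widened, after that result, to 4 forms by adding TTTCCCGC and TTTGCCGC, which found 3 of 15 member windows (PHF19, SUZ12 and EZH1) and 2.79% of all windows. The window of the first listed PHF19 start had no such match, and neither did any window of EZH2 or EED. CACGTG, the E-box bound by MYC and its partners, was in 1 member window and 6.34% of all, and TGGGAA, the core of the site of the NOTCH partner RBPJ, was in 0 and 20.8%. First-start windows of the members held 11 to 40 CG dinucleotides, at or above the median of 11 over all windows. All 4 E2F-type forms contain CG, and the shares above were not matched for CG content. A match describes letters only, and no binding was measured here.

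**Figure D1:**
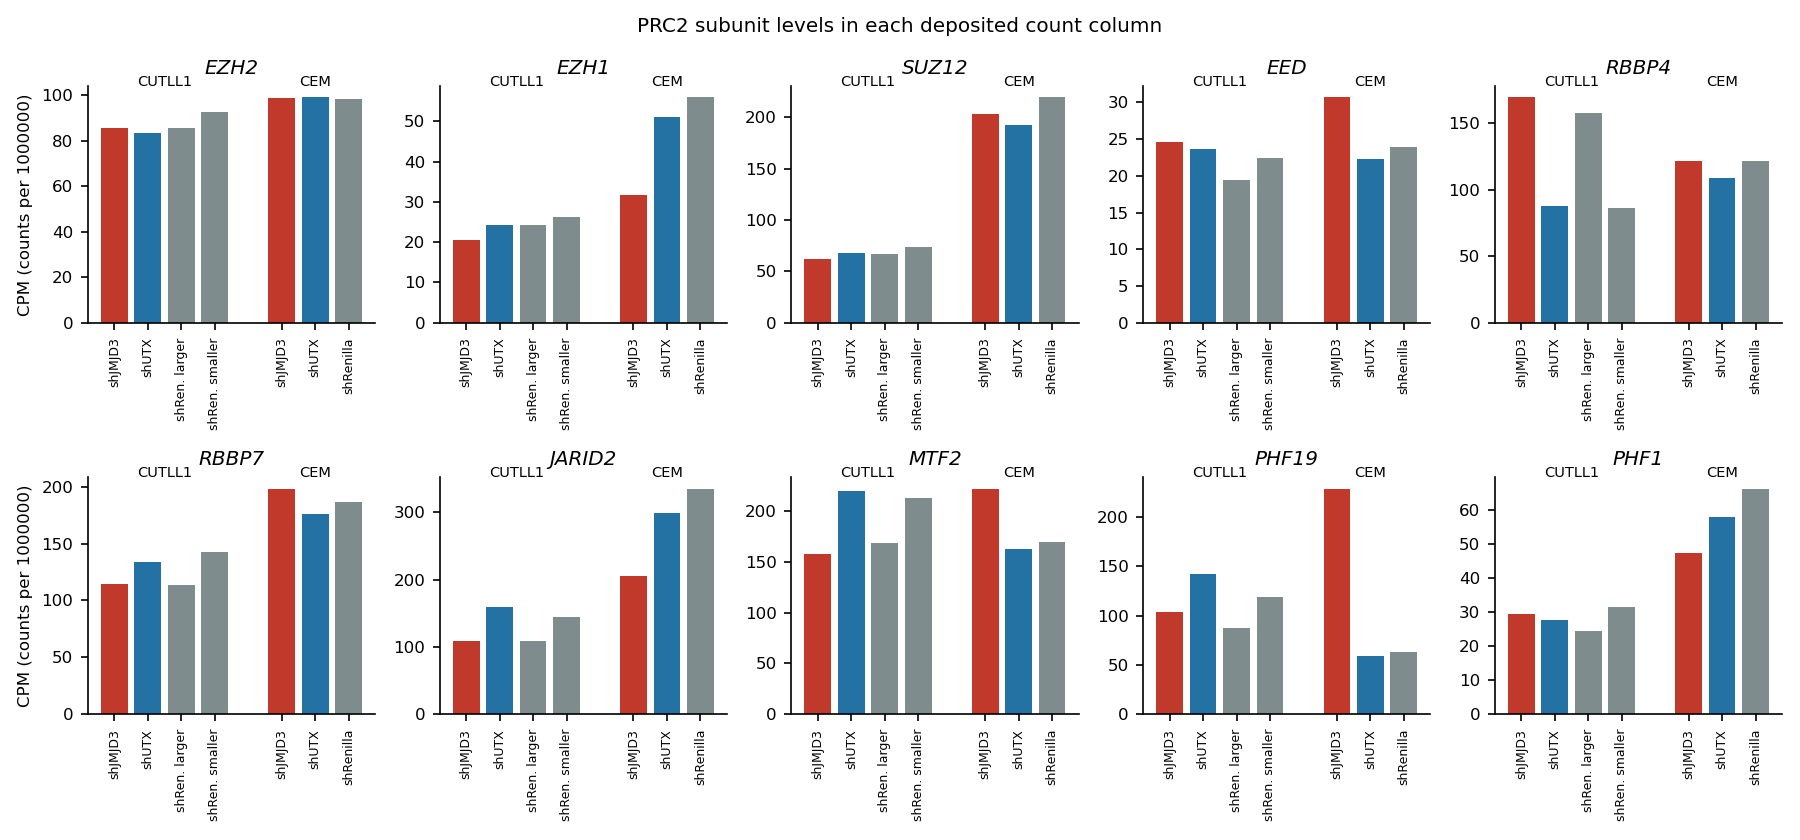
Level of each subunit in CPM of its column (linear axes from 0), by line and hairpin, with both CUTLL1 control columns. PHF19 stands at 228 CPM in CEM shJMJD3, against 62.6 CPM in CEM shRenilla, EZH2 has a narrow range on this scale (its scaled log2 ratios reach 0.36), and RBBP4 in CUTLL1 is high in the shJMJD3 and larger control columns.

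EZH2, the main catalytic subunit, kept a narrow range as a share of column totals, and less so with another scaling. EZH2 (ENSG00000106462) had 98.7 CPM in shJMJD3 and 99.1 CPM in shUTX cells, against 98.3 CPM in shRenilla cells of CEM. In CUTLL1 it had 85.5 CPM in shJMJD3 and 83.3 CPM in shUTX cells, against 85.4 and 92.4 CPM in the larger and smaller control columns. The highest of these CPM levels was 1.19 times the lowest, the narrowest range of the 10 members. With the scaling to the bulk of genes used for ratios below, EZH2 was higher in the shJMJD3 columns. In CEM it was higher by 0.32 on the log2 scale (95% interval 0.27 to 0.36) against shRenilla and by 0.24 against shUTX. In CUTLL1 it was higher by 0.36 (0.32 to 0.40) against shUTX. Against the CUTLL1 shRenilla columns the ratio was 0.15 for the larger, 0.19 for the smaller and 0.03 for the remainder. The intervals cover counting error only. Between the 2 parts of that control EZH2 differed by 0.32 relative to the median gene. EZH1 (ENSG00000108799) had 31.6 CPM in shJMJD3 and 51.1 CPM in shUTX cells, against 56.0 CPM in shRenilla cells of CEM, so the shJMJD3 column was the low one. In CUTLL1 its levels were 20.6 CPM in shJMJD3 and 24.2 CPM in shUTX cells, against 24.2 and 26.3 CPM in the control columns. There the order depended on the scaling: shJMJD3 was lowest in CPM, but its scaled log2 ratio to shUTX was 0.09 (0.02 to 0.17).

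The ratio of EZH1 to EZH2 counts within a column does not depend on how columns are scaled. In CEM it was 0.321 under shJMJD3 and 0.516 under shUTX, against 0.569 under shRenilla. In CUTLL1 it was 0.241 under shJMJD3 and 0.290 under shUTX, against 0.284 and 0.285 in the larger and smaller control columns and 0.282 in the remainder. The ratio was therefore lowest under shJMJD3 in both lines, by -0.83 on the log2 scale in CEM (95% interval -0.91 to -0.75) and by -0.24 in CUTLL1 (-0.30 to -0.17), where it came to -0.24 and -0.23 against the smaller column and the remainder. Under shUTX the same difference was -0.14 (-0.22 to -0.07) in CEM and 0.03 (-0.06 to 0.11) in CUTLL1. All such intervals cover counting error only, since 1 column per hairpin gives no replicate check and no test.

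SUZ12 (ENSG00000178691), the scaffold of the core, differed more between the lines than between hairpins. It had 203 CPM in shJMJD3 and 193 CPM in shUTX cells, against 220 CPM in shRenilla cells of CEM, but 62.2 CPM in shJMJD3 and 67.5 CPM in shUTX cells, against 66.5 and 73.8 CPM in the control columns of CUTLL1. EED (ENSG00000074266) had 30.7 CPM in shJMJD3 and 22.3 CPM in shUTX cells, against 23.9 CPM in shRenilla cells of CEM. In CUTLL1 it had 24.6 CPM in shJMJD3 and 23.6 CPM in shUTX cells, against 19.5 and 22.4 CPM in the control columns. EED was highest under shJMJD3 in both lines, in CPM and in scaled ratios.

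RBBP4 (ENSG00000162521) followed the composition of the CUTLL1 columns. It had 170 CPM in shJMJD3 and 88.1 CPM in shUTX cells, against 158 CPM in the larger and 86.2 CPM in the smaller control column, and 249.9 CPM in the remainder. The columns with more small noncoding RNA were the ones high in RBBP4; the part of that composition in its level was not tested. In CEM, where small noncoding RNA was at most 0.0486%, it had 121 CPM in shJMJD3 and 109 CPM in shUTX cells, against 122 CPM in shRenilla cells. RBBP7 (ENSG00000102054), its close relative, had 114 CPM in shJMJD3 and 133 CPM in shUTX cells, against 114 and 143 CPM in the control columns of CUTLL1, and 198 CPM in shJMJD3 and 176 CPM in shUTX cells, against 186 CPM in shRenilla cells of CEM. The RBBP7 to RBBP4 count ratio was 0.672 under shJMJD3 and 1.51 under shUTX in CUTLL1, against 0.720 and 1.66 in the larger and smaller control columns, but between 1.53 and 1.63 in the CEM columns.

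**Figure D2:**
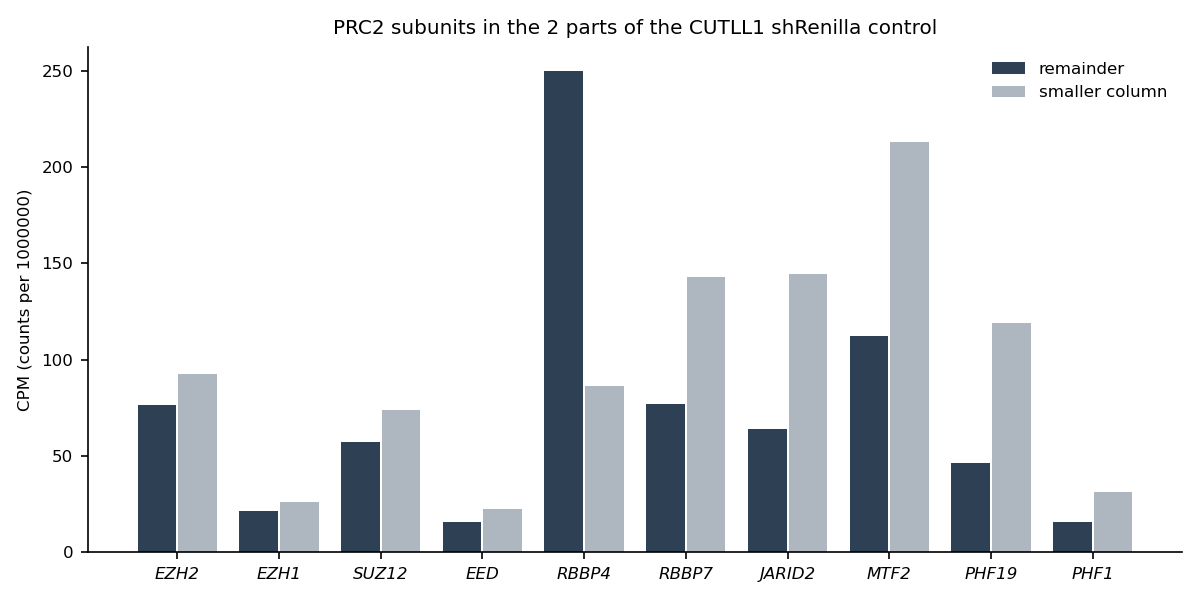
Level of each subunit (CPM, axis from 0) in both parts of the CUTLL1 shRenilla control, the remainder left of the smaller column. RBBP4 is at 249.9 CPM in the remainder and 86.2 CPM in the smaller column. The other 9 members have lower CPM in the remainder, as has the median gene, at -0.60 on the log2 scale. Relative to that gene, EZH2 (0.32), EZH1 (0.31), SUZ12 (0.24) and EED (0.10) are higher in the remainder. RBBP7, JARID2, MTF2, PHF19 and PHF1 are lower on that measure too. The share of all genes with lower CPM was not computed.

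The parts of the CUTLL1 control differed among themselves in other members too. PHF19 had 46.4 CPM in the remainder and 119 CPM in the smaller column, and JARID2 had 64.1 and 145 CPM. The median gene lay at -0.60 on the log2 scale between these parts. Relative to it, RBBP4 stood at 2.14, with 13.9% of genes at least as far from that median. PHF19 stood at -0.76 (30.6% of genes), JARID2 at -0.57 (39.9%) and EZH2 at 0.32 (60.0%). Differences of this size arose here between parts of 1 control group.

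The largest difference between hairpins among the members was that of PHF19, a PRC2.1 subunit, in CEM. PHF19 (ENSG00000119403) had 16055 counts or 228 CPM in shJMJD3 and 4185 counts or 59.1 CPM in shUTX cells, against 6519 counts or 62.6 CPM in shRenilla cells of CEM. The CEM shJMJD3 column was the highest of all columns for this gene. In CUTLL1 it had 104 CPM in shJMJD3 and 142 CPM in shUTX cells, against 87.0 and 119 CPM in the control columns, so that shJMJD3 lay between both controls in CPM, while its scaled ratio was above 0 against either of them (0.40 and 0.11). MTF2 (ENSG00000143033) had 222 CPM in shJMJD3 and 163 CPM in shUTX cells, against 170 CPM in shRenilla cells of CEM, and 158 CPM in shJMJD3 and 220 CPM in shUTX cells, against 169 and 213 CPM in the control columns of CUTLL1. Its shJMJD3 column was the highest in CEM. In CUTLL1 it was the lowest in CPM. Its scaled ratio there was 0.05 (0.03 to 0.08) to the larger control column, but -0.12 (-0.15 to -0.10) to the smaller one and -0.15 to shUTX. PHF1 (ENSG00000112511) had 47.2 CPM in shJMJD3 and 57.8 CPM in shUTX cells, against 66.1 CPM in shRenilla cells of CEM, and 29.3 CPM in shJMJD3 and 27.5 CPM in shUTX cells, against 24.5 and 31.4 CPM in the control columns of CUTLL1.

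Counts of PHF1 for each count of PHF19 were 0.207 under shJMJD3 and 0.979 under shUTX, against 1.06 under shRenilla in CEM, and those of MTF2 for each of PHF19 were 0.972 and 2.76, against 2.72. PHF19 thus made up a larger share of the Polycomb-like transcripts in the CEM shJMJD3 column. In CUTLL1 the PHF1 to PHF19 ratio was 0.281 under shJMJD3 and 0.194 under shUTX, against 0.281 and 0.264 in the control columns, and the MTF2 to PHF19 ratio was 1.52 and 1.55, against 1.94 and 1.79. JARID2 (ENSG00000008083), of PRC2.2, had 205 CPM in shJMJD3 and 299.7 CPM in shUTX cells, against 335 CPM in shRenilla cells of CEM, and 109 CPM in shJMJD3 and 159 CPM in shUTX cells, against 109 and 145 CPM in the control columns of CUTLL1.

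**Figure D3:**
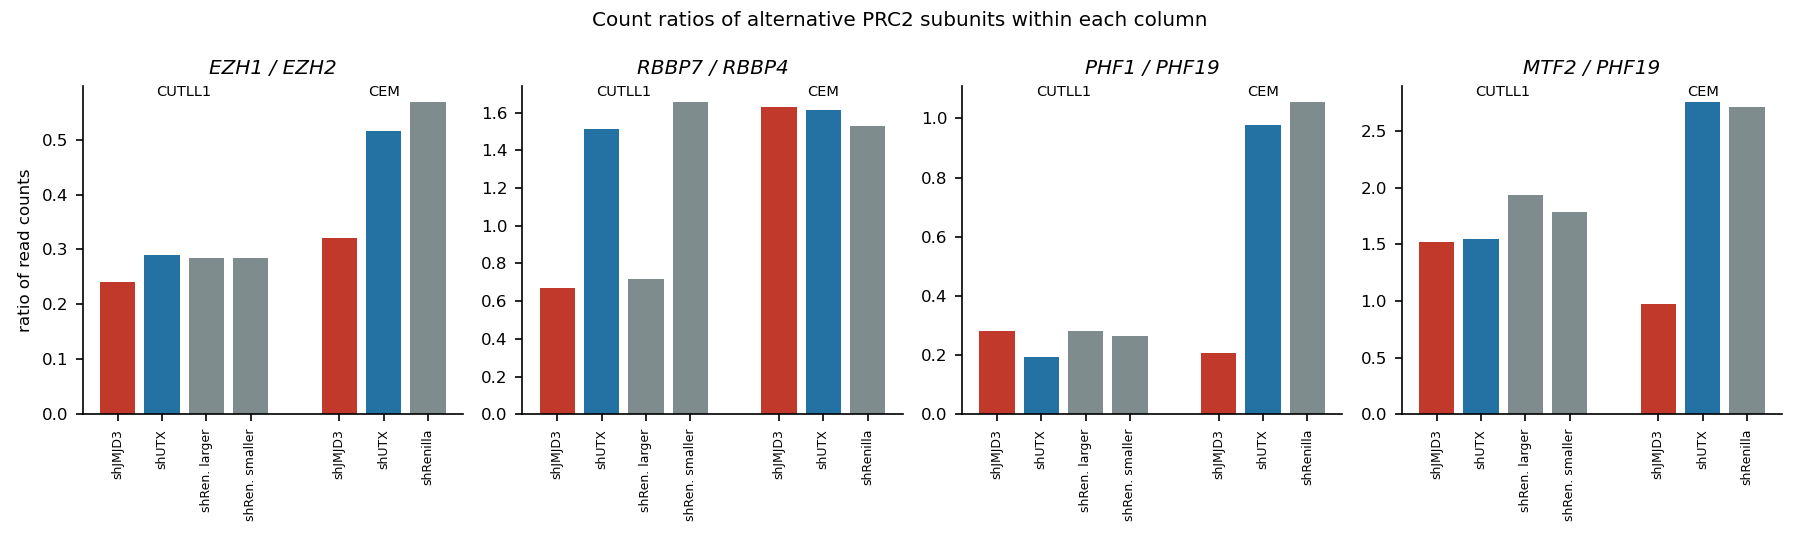
Ratios of read counts of alternative subunits within each column (linear axes from 0), by line and hairpin, with both CUTLL1 control columns. The EZH1 to EZH2 ratio is lowest under shJMJD3 in both lines, at 0.241 in CUTLL1 and 0.321 in CEM.

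Between lines, 6 members (EZH2, EZH1, SUZ12, RBBP7, JARID2 and PHF1) were higher in every CEM column than in every CUTLL1 column, and 0 the other way. Over the 20913 genes with at least 50 counts in any column, 31.2% were higher in every CEM column and 19.4% in every CUTLL1 column. EED, RBBP4, MTF2 and PHF19 overlapped. Protein-coding genes took at least 93.0% of the counts in CEM columns but 66.9% to 81.8% in CUTLL1 columns, which lowers the CPM of messenger RNAs in CUTLL1. Per 1000000 protein-coding counts, a scale added after seeing the data, 5 members remained higher in every CEM column, while EZH2 overlapped, at 104.9 to 106.3 in CEM and 105.5 to 127.7 in CUTLL1. The share of all genes was not computed per protein-coding count, so that number of members has no background beside it. Per kilobase of exon, where lengths come from GENCODE release 29 and not from the authors' annotation, EZH2 lay at 21.7 to 21.9 CPM in CEM and 18.4 to 20.4 CPM in CUTLL1, and EZH1 at 4.53 to 8.01 CPM in CEM and 2.95 to 3.77 CPM in CUTLL1. On that scale the EZH2 level was above the EZH1 level in each column. The summed level of EZH2, EZH1, SUZ12 and EED was 364 CPM under shJMJD3 and 365 CPM under shUTX, against 398 CPM under shRenilla in CEM, and 193 CPM and 199 CPM, against 196 and 215 CPM in the control columns of CUTLL1.

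Log2 ratios within a line were then scaled by trimmed mean of M values (TMM) on the columns compared. A gene was counted as apart at 1.5-fold or more with at least 50 counts in either column. For shJMJD3 against shRenilla in CEM, 3 of the 10 members were higher and 0 lower, against 22.4% of all genes higher and 23.9% lower. PHF19 had a ratio of 2.18 (95% interval 2.14 to 2.22), at or above which lay 2.71% of genes, MTF2 of 0.70 (0.66 to 0.73) and EED of 0.67 (0.59 to 0.75). EZH1 was at -0.51, JARID2 at -0.40 and PHF1 at -0.18, and the other 4 members were between 0.20 and 0.40. With column totals, which shift every ratio here by -0.31, 1 member was higher (PHF19, 1.87) and 2 lower (EZH1, -0.82, and JARID2, -0.71). Of all genes, 13.9% were then higher and 36.5% lower. The split of members above and below 0 was 7 to 3 with TMM and 5 to 5 with totals, where 49.0% and 33.4% of all genes were above 0. A share of 3 in 10 is near that of all genes, and PHF19 is the member that stood at the edge of their distribution.

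In CUTLL1, 0 members were apart for shJMJD3 against the larger shRenilla column, against 8.46% of genes higher and 7.39% lower. The ratios ran from -0.09 for EZH1 to 0.48 for EED, with PHF19 and PHF1 both at 0.40. Set against the smaller column, RBBP4 alone was apart at 1.28, and set against the remainder RBBP4 was at -0.69, PHF19 at 1.03, PHF1 at 0.77 and JARID2 at 0.63. Of all genes, 18.1% were higher and 6.29% lower against the smaller column, and 19% higher and 19.7% lower against the remainder. The member median was 0.31 in CEM and 0.15 in CUTLL1, against -0.02 and -0.01 over all genes.

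**Figure D4:**
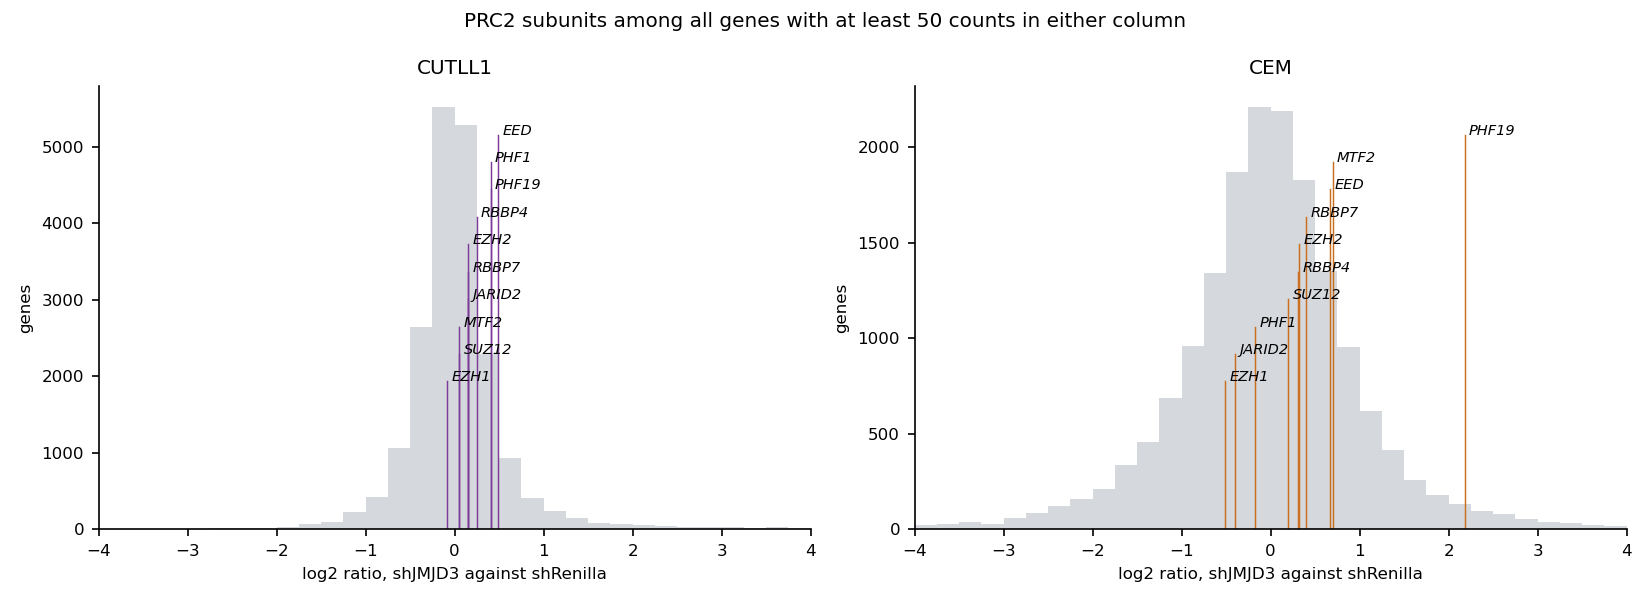
Distribution of log2 ratios of shJMJD3 to shRenilla over all genes with at least 50 counts in either column (bars, number of genes per 0.25), with each subunit marked by a line whose height serves only to place its name. PHF19 lies at 2.18 in CEM and at 0.40 in CUTLL1, where no subunit reaches 1.5-fold.

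For shUTX against shRenilla, 0 members were apart in either line. Over all genes, 3.5% were higher and 2.27% lower in CUTLL1, and 3.35% were higher and 4% lower in CEM. Member ratios ran from -0.15 (PHF1) to 0.29 (PHF19) in CUTLL1 and from -0.15 (PHF1) to 0.05 (EZH2) in CEM. In CEM 9 of the 10 were below 0, with a member median of -0.08 against 0.00 over all genes. Of all genes in CEM, 50.9% were above 0, and whether the members differ from them as a set was not tested. RBBP4 in CUTLL1 was at 0.07 against the smaller control column, with which the authors paired shUTX, at -1.01 against the larger and at -2.02 against the remainder, where 18.1% and 25.3% of all genes were at least 1.5-fold lower.

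For shJMJD3 against shUTX in CUTLL1, RBBP4 alone was higher at 1.27 (1.24 to 1.30) and 0 members were lower, against 19.3% and 6.35% of genes. In CEM the 3 higher members were PHF19 at 2.20, EED at 0.71 and MTF2 at 0.69, with 0 lower, against 22.2% and 23.3% of genes. With column totals CEM had 1 higher (PHF19, 1.95) and 1 lower (EZH1, -0.69), beside 15.2% and 33.3% of all genes. In CEM this comparison and that with shRenilla share the shJMJD3 column, so their likeness is built in, and both comparisons with shRenilla share the control.

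**Figure D5:**
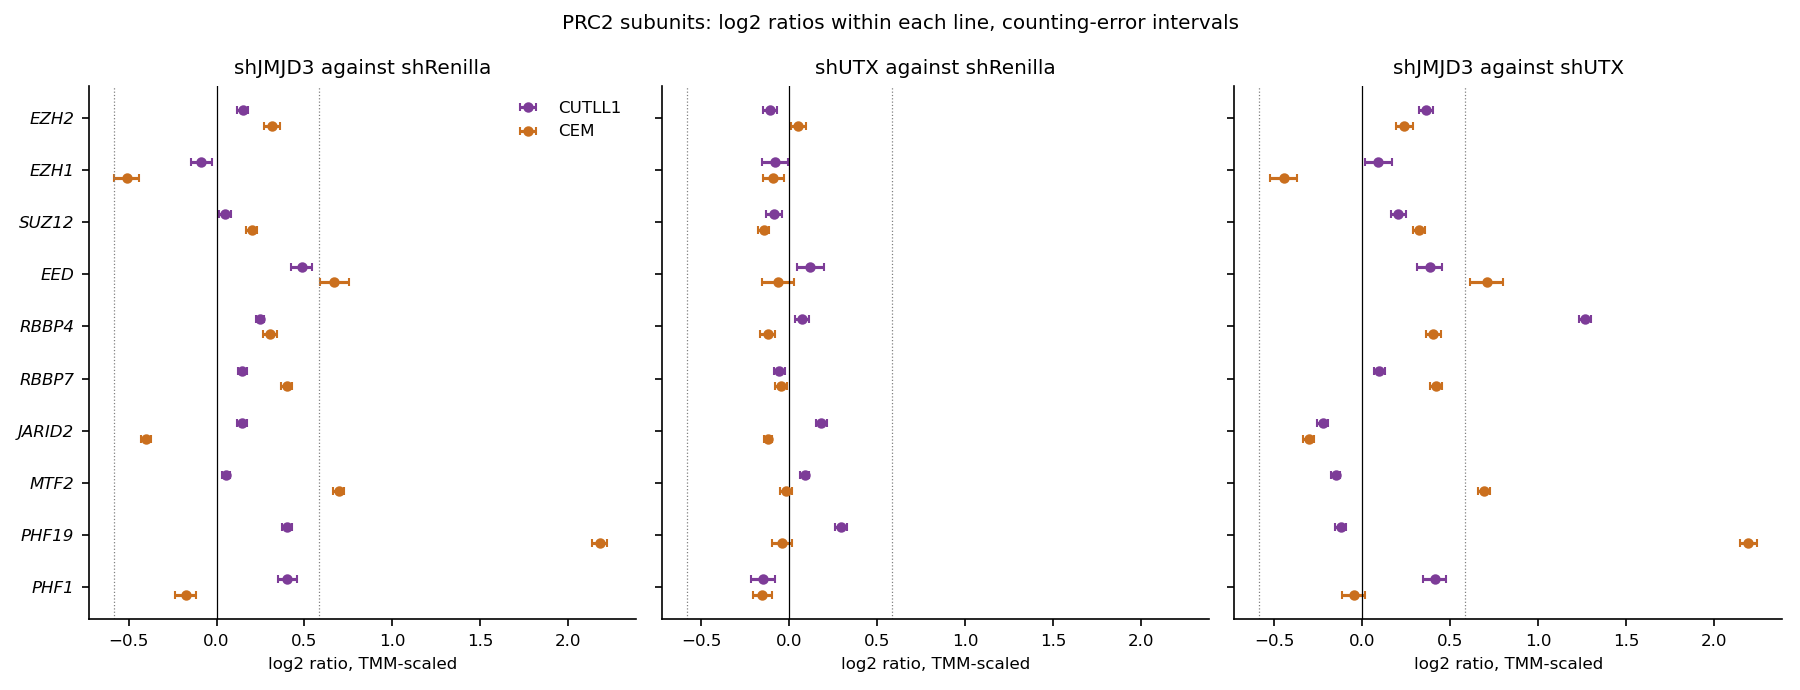
TMM-scaled log2 ratio of each subunit in CUTLL1 and CEM for 3 comparisons, with 95% intervals that cover counting error only. Dotted lines mark 1.5-fold; PHF19 in CEM is at 2.18 against shRenilla and 2.20 against shUTX, and no subunit passes the lines for shUTX against shRenilla.

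Taking the lines as the only replicates, the quasi-likelihood test of edgeR, adjusted over all genes by Benjamini-Hochberg, called 0 members in each comparison. With line as a block, the spread is how far hairpin differences vary between the 2 lines, pooled over the 3 hairpins. Against that spread, the test asks whether the mean hairpin difference over the lines is 0. Of all genes it called 0% of 24003 for shJMJD3 against shRenilla, 0% of 23112 for shUTX against shRenilla and 0% of 24003 for shJMJD3 against shUTX, with 936, 39 and 1945 genes at an unadjusted p under 0.05. The hairpins' own targets were thus not called by edgeR either. DESeq2 called 110 of 40694, 2 of 39896 and 287 of 40694 genes, with 0 members among them. Across lines shJMJD3 against shRenilla gave PHF19 a log2 ratio of 1.45 ± 0.62 (SE) with an edgeR adjusted p of 0.800, higher in 2 of 2 lines, and EED 0.58 ± 0.23 with an edgeR adjusted p of 0.800, higher in 2 of 2. RBBP4 had the smallest adjusted p of the members for shJMJD3 against shUTX, 0.608 by edgeR, with a log2 ratio of 0.75 ± 0.27. For shUTX against shRenilla the edgeR adjusted p of every member was 1. No member was thus shown to change across lines, and the differences above are values of single columns.

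Other genes around PRC2 were read beside the members. Of 20 further Polycomb and H3K27 or H3K36 genes, 19 had enough counts, and for shJMJD3 against shRenilla 2 were higher and 5 lower in CEM, and 0 higher and 1 lower in CUTLL1. In CEM these are 10.5% and 26.3% of the list, beside 22.4% and 23.9% of all genes, so the lower share is near that of all genes. With column totals 1 was higher and 6 lower in CEM, and 0 higher and 3 lower in CUTLL1. Of all genes, 13.9% were then higher and 36.5% lower in CEM, and 6.07% and 11.8% in CUTLL1. The higher ones in CEM were WHSC1 (0.96), a histone H3 lysine 36 methyltransferase, and AEBP2 (0.73), which joins PRC2.2. Among the lower ones were KDM6B itself, CBX7 (-1.14) and CBX6 (-1.08), chromobox readers found in PRC1, and NSD1 (-0.81), another lysine 36 methyltransferase. In CUTLL1, WHSC1 (-0.23) and CBX7 (0.41) had the opposite sign, and AEBP2 (0.23), CBX6 (-0.54) and NSD1 (-0.44) the same sign. KDM6B, targeted by the hairpin, was the one gene of the list apart and of like sign in CUTLL1 and CEM; for shUTX against shRenilla that gene was KDM6A. The other genes named here were chosen after their values were seen.

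In shJMJD3 against shRenilla cells of CEM, 11 of 33 S phase genes passed 1.5-fold upward and 0 downward, with a median log2 ratio of 0.46, and 0 were apart in CUTLL1, with a median of 0.01. In CEM these are 33.3% and 0% of the list, beside 22.4% and 23.9% of all genes. With column totals 7 passed upward and 0 downward in CEM, with a median of 0.15, and 1 passed downward in CUTLL1, with a median of -0.14. On that scaling 13.9% of all genes were higher and 36.5% lower in CEM, and 6.07% and 11.8% in CUTLL1. The highest in CEM were RRM2 (1.69), RFC5 (1.46) and TYMS (1.26), and the lowest CCNE1 (-0.15), GINS3 (-0.10) and POLA1 (-0.03). The part of S phase transcripts in the PHF19, MTF2 and EED values of CEM was not tested.

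Among 13711 genes with at least 50 counts in each of 6 columns, the pattern most like that of EZH2, by root mean square difference of log2 levels centred within each line, was that of PSMD8 (0.011), then MED9 (0.022) and TULP3 (0.024). For EZH1 it was DDX27 (0.012), PTRH2 (0.018) and ZNF561 (0.021). These levels used the larger CUTLL1 control column and TMM over all 6 columns. With this many genes and so few columns, close patterns are easily found, and no link was tested. Reads shared with pseudogenes are a limit for SUZ12, whose copy SUZ12P1 had up to 2157 counts, and for RBBP4, whose 6 copies had up to 478, while EZH2P1 had at most 2.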

How the data were processed

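RNA was made into strand-marking dUTP libraries from poly(A) or ribosomal RNA-depleted RNA and read as 50-nt single reads, per the labels' protocols (which sample had which is not stated). CASAVA, TopHat and hg19 are named, per the submitters' processing notes. Raw counts per gene were deposited by the authors in 6 tables, 1 column per hairpin and line. For the counter and its annotation, nothing is given in the sources used here. Samples were pooled in these columns, and whether they came from separate cultures is not stated.

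CPM were computed from column totals. Ratios used TMM of the 2 columns compared, a prior count of 2 and exact binomial 95% intervals for counting error; TMM over all 6 columns was computed first and is kept as an alternative. Across lines, edgeR 4.0.16 (glmQLFit, glmQLFTest, filterByExpr, all 6 columns, line as a block, 2 residual degrees of freedom) was the test and DESeq2 1.42.0 an alternative. The fit was tested before use on simulated counts whose changes were alike in both lines. That check does not cover changes that differ between lines. Named genes were all members, both targets, listed Polycomb genes apart in both lines, 3 extremes of the S phase list and 3 genes each most like EZH2 and EZH1. Outside this rule, WHSC1, AEBP2, CBX7, CBX6 and NSD1 were named after their values were seen. The members, lists and rules were chosen with earlier results of these data known. The widened E2F search, the remainder as a control and the form in which both control parts were compared were chosen after values were seen. One gene of the Polycomb list is counted but not reported by name here.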

Additional observations from a re-analysis of the deposited data

Results flagged for a closer look

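PHF19 and MTF2 lay on opposite sides of 0 in the lines for shJMJD3 against shUTX, beyond their counting intervals and at least 1.5-fold apart; the difference was not tested. The CUTLL1 minus CEM difference of log2 ratios was -2.32 for PHF19, with -0.12 in CUTLL1 and 2.20 in CEM, and -0.84 for MTF2, with -0.15 in CUTLL1 and 0.69 in CEM. The CUTLL1 columns held 11.7% (shJMJD3) and 2.58% (shUTX) small noncoding RNA. Between the 2 parts of the CUTLL1 control, PHF19 differed by -0.76 and MTF2 by -0.32 relative to the median gene. Against the paired CUTLL1 controls, PHF19 was at 0.40 under shJMJD3 and 0.29 under shUTX, and MTF2 at 0.05 and 0.09. The part of column composition in the CUTLL1 signs was not tested. The size limit of 1.5-fold was set during the analysis. For shJMJD3 against shRenilla, PHF1 also passed it with column totals, at 0.26 in CUTLL1 and -0.49 in CEM, a difference of 0.74, and with TMM over all 6 columns, a difference of 0.59. With the scaling used it had 0.40 in CUTLL1 and -0.18 in CEM.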

How the results depend on the processing

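No paired analysis was possible because replicate samples are pooled in the deposited columns. No member was called across lines under any of the 7 other fits. Those fits called few genes at all, at most 287 of 40694 (DESeq2, shJMJD3 against shUTX), so this is not a result about the members. The count of members apart for shJMJD3 against shRenilla in CUTLL1 was 1 against the smaller control column and 4 against the remainder, and for shUTX 1 against the larger column and 3 against the remainder, where the main counts are 0. Of all genes, 18.1% were then higher and 6.29% lower for shJMJD3 against the smaller column and 19% and 19.7% against the remainder, and 6.5% and 18.1% for shUTX against the larger column and 20.4% and 25.3% against the remainder, so these counts are not a result about the members. A 2-fold limit left 1 member in CEM for shJMJD3 against shRenilla and 1 against shUTX. Of all genes in CEM, 11.8% were then higher and 13.4% lower against shRenilla, and 11.7% and 12.8% against shUTX.

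Directions across lines turned with column totals for SUZ12 (-0.10) and PHF1 (-0.11) in shJMJD3 against shRenilla, for EED (-0.010), JARID2 (-0.014) and MTF2 (-0.0024) in shUTX against shRenilla, and for SUZ12 (-0.023), RBBP7 (-0.029), MTF2 (-0.013) and PHF1 (-0.090) in shJMJD3 against shUTX. With the other control column they turned for EZH2 (0.0034) and RBBP7 (0.091) in shUTX against shRenilla. With the remainder, added after seeing the data, they turned for RBBP4 (-0.33) and JARID2 (0.037) in shJMJD3 against shRenilla and for RBBP7 (0.12) and PHF1 (0.053) in shUTX against shRenilla. The cause was not tested.

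Leaving out either line gave, for shJMJD3 against shRenilla, -0.40 to 0.14 for JARID2 and -0.18 to 0.40 for PHF1. For shUTX against shRenilla it gave -0.11 to 0.051 for EZH2, -0.064 to 0.12 for EED, -0.12 to 0.073 for RBBP4, -0.12 to 0.18 for JARID2, -0.020 to 0.087 for MTF2 and -0.043 to 0.29 for PHF19. For shJMJD3 against shUTX it gave -0.45 to 0.092 for EZH1, -0.15 to 0.69 for MTF2, -0.12 to 2.20 for PHF19 and -0.048 to 0.41 for PHF1. TMM over 6 columns, computed first and kept as an alternative after values were seen, changed no count of members apart. For shJMJD3 against shUTX in CUTLL1 it moved RBBP4 from 1.27 to 1.13 and the member median from 0.15 to 0.01. The members above and below 0 there went from 7 and 3 to 5 and 5. Of all genes, 51.7% were above 0 with the scaling used and 37.9% with TMM over 6 columns.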
